A study of Mus musculus with 10 samples.

Results

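The proteasome genes are the entries of the deposited UMI tables whose symbol begins with Psma, Psmb, Psmc, Psmd or Psme, with pseudogenes left out. There were 44 of them among 14812 entries, and 42 had a mean of at least 3 CPM (UMIs of a gene scaled to 1000000 UMIs per library) and were tested. The other 2 were Psma8, a germ-line alpha subunit, and Psmc3ip, a recombination protein that shares only the prefix. Both had a mean of 0.5 CPM. The tables come from single hepatocytes, the main cells of the liver, of male C57BL/6 mice aged 3 months that ate regular chow freely. Zeitgeber time (ZT) counts hours from lights on. There were 3 libraries at ZT0 (A, B and C), 2 at ZT6 (A and B), 3 at ZT12 (A, B and C) and 2 at ZT18 (A and B). All 10 libraries share strain, sex, age, diet, ketamine and xylazine anaesthesia, collagenase perfusion, Percoll purification and the 10x Chromium 3′ kit. The number of mice behind a library is not given in the labels, so p-values measure the spread between libraries, which may be partly technical.

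The proteasome is the large protease that degrades proteins tagged with ubiquitin. Its core is a barrel of alpha and beta rings, the 20S particle, and the catalytic sites sit on the beta subunits Psmb5, Psmb6 and Psmb7. A 19S cap, made of a base with ATPases (Psmc genes) and a lid (most Psmd genes), recognises, unfolds and feeds in the substrate. Interferon is known to induce alternative catalytic subunits, Psmb8, Psmb9 and Psmb10, which replace Psmb5, Psmb6 and Psmb7 in the immunoproteasome, together with the activator PA28 (Psme1 and Psme2). In the liver lobule, hepatocytes near the portal vein and near the central vein carry out different metabolic work.

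Promoter windows of 37 of the 44 members were found in the RefSeq table for GRCm38.p6, and the 250 bases before each start site were searched on both strands. Psmb5, a constitutive catalytic gene, and Psmd14, the gene with the largest zone difference, are shown as far as they lie outside annotated untranslated exons. In Psmb5 (chr14:54618023-54618245, minus strand) the capitals mark TGACNNNGC, the core of the antioxidant response element, which starts at position -47. In Psmd14 (chr2:61711444-61711693, plus strand) they mark a CCAAT box read on the other strand, at -159. Psmb8 is given as a 30-base site only (chr17:34198088-34198117, plus strand), with capitals on TTCNNNGAA, the letters of the STAT-binding GAS element, at -97.
Psmb5: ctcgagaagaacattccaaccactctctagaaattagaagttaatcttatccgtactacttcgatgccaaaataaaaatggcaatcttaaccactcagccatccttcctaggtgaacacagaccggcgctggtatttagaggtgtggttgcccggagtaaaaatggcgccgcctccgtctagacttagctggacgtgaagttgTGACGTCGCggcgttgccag
Psmd14: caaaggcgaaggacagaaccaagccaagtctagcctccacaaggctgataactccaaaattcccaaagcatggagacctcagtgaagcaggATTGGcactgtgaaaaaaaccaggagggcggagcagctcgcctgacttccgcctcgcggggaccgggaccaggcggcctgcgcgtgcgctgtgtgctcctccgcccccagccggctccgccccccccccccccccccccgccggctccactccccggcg
Psmb8: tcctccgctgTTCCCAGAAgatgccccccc
TGACNNNGC was in 5 of the 37 member windows (Psmb5, Psmb6, Psmc6, Psmd12 and Psmd9), or 13.5%, against 10.2% of 27025 promoters. TTCNNNGAA was in 1, that of Psmb8, or 2.7%, against 7.18%. The interferon regulatory factor element, searched as GAAA repeated after any 2 bases, was in 3 (Psmb3, Psmd4 and Psmd9), or 8.11%, against 3.04%. CCAAT was in 14, or 37.8%, against 34.5%. These are matches of letters and say nothing of binding.

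The libraries held 710 to 2860 cells each, 18378 in all, and 1454623 to 7144803 UMIs. Median depth was 1588 to 2662 UMIs per cell. Hepatocyte markers summed to 46334 to 85059 CPM. The leukocyte list summed to 2.06 to 47.1. Of its 21 genes with an entry, 9 were at 0 throughout: C1qa, C1qb, C1qc, Clec4f, Csf1r, Cd3e, Nkg7, Gzma and Cd79a. From 3 (ZT12A) to 165 (ZT6A) cells of a library held a UMI of another gene of the list. ZT18B stood apart in erythroid markers, at 361 against 72.2 to 108 elsewhere. Both ZT18 libraries used column 4 of the index plate and no other library did, so time and index column cannot be told apart there. Both ZT6 libraries used column 7, as did ZT0B and ZT12B. Every comparison of ZT18 with ZT6 is thus also one of column 4 with column 7. The tests used UMIs summed over the cells of a library, and such sums do not tell fewer expressing cells from less RNA per cell. A Psmb8 UMI was found in 2.69% (ZT18B) to 10.3% (ZT6A) of the cells of a library, so most cells held none.

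Members took 3190 to 17388 UMIs per library, with a median of 3 to 8 per cell. Their summed level was 2894, 2223 and 2861 CPM in ZT0A, ZT0B and ZT0C, 2540 and 2763 in the ZT6 pair, 2193, 2434 and 2770 in ZT12A, ZT12B and ZT12C, and 2123 and 2160 in the ZT18 pair. The ZT18 values were the lowest of the 10, with those of ZT12A and ZT0B next to them. The mean over libraries was 2496 ± 310 CPM (SD, n = 10). With mitochondrially encoded genes left out of the total it was 3034. The 20S core without the immunoproteasome took 1204 ± 215 CPM, the 19S particle 940 ± 136 and the 3 immunoproteasome genes 63.4 ± 21.2 (SD, n = 10). These tag counts are per molecule and not per length, and capture can differ between genes. In UMIs the alpha subunit genes Psma7 (mean 134 CPM) and Psma4 (128) and the beta subunit gene Psmb1 (127) ranked highest, and Psme2b (6.12), Psma8 and Psmc3ip lowest.

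**Figure D1:**
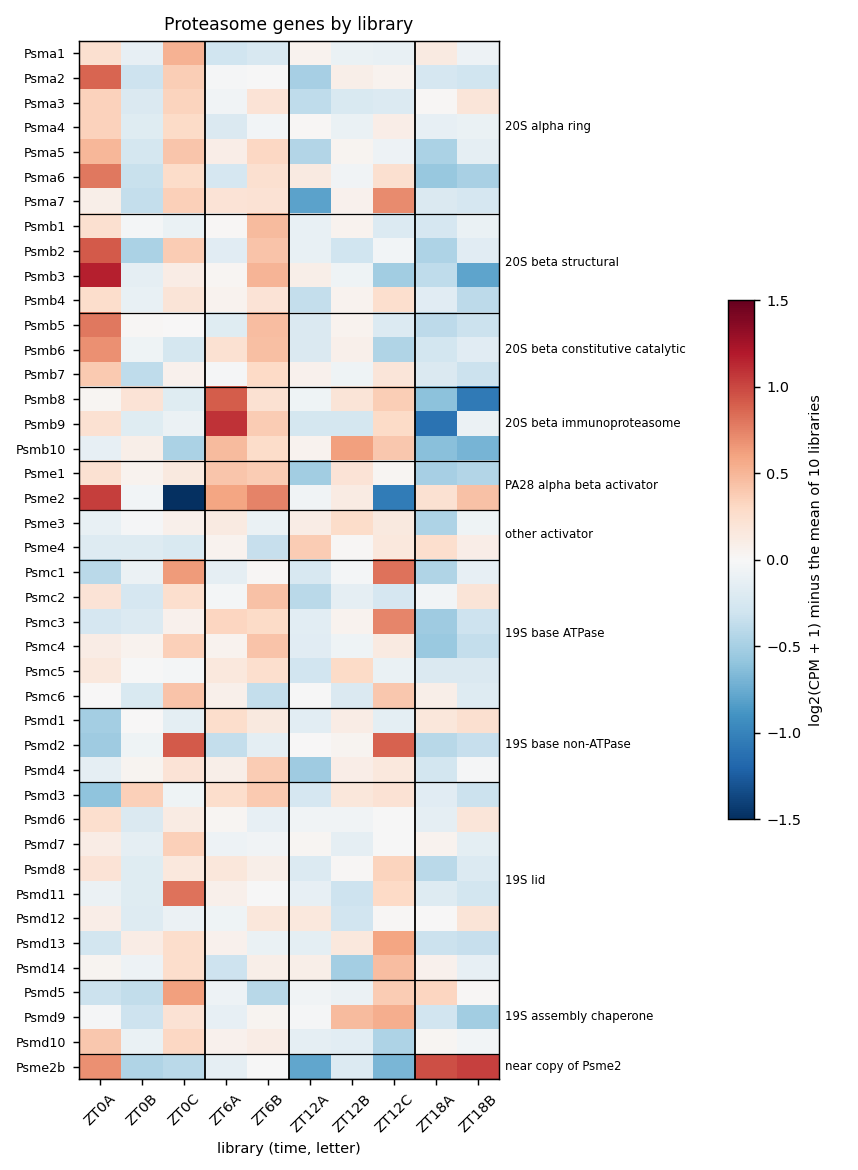
Level of the 42 tested members (rows, by role) in the 10 libraries (columns), as log2(CPM + 1) minus the mean of the libraries. Psmb8 runs from 12.9 CPM in ZT18B to 53.4 in ZT6A, and Psme2 is lowest in ZT0C and ZT12C, at 5.4 and 11.5 CPM.

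Among subunits, the immunoproteasome genes had the largest fitted differences between ZT6 and ZT18. Psmb8, the immunoproteasome counterpart of Psmb5, was the one member with a 24-h rhythm, with a log2 amplitude of 0.70 and a fitted peak at ZT 6.01 (edgeR's quasi-likelihood test, adjusted p = 0.0323). That is 1 of 42 members, against 5.14% of the 8908 genes tested. It stood at 28.6, 32.5 and 24.6 CPM in ZT0A, ZT0B and ZT0C, 53.4 and 33.2 in ZT6A and ZT6B, 26.8, 32.2 and 36.6 in ZT12A, ZT12B and ZT12C, and 17.9 and 12.9 in ZT18A and ZT18B. Both ZT18 libraries lay below the other 8, while ZT6B lay among the ZT0 and ZT12 values. From ZT6 to ZT18 Psmb8 fell by 1.42 ± 0.28 on the log2 scale (SE), with an adjusted p of 0.0146. It was the single member called, against 3.79% of all genes (1.45% lower and 2.35% higher at ZT18).

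In the main fit the other immunoproteasome genes did not pass the test over all genes. Psmb10 passed for ZT18 against ZT6 with the library letter as a block (the replicate block, adjusted p = 0.0261) or without ZT0C (0.0426). By library size alone 2 members passed that comparison and without a filter 3, all lower at ZT18. Psmb10, the counterpart of Psmb7, stood at 20.6, 23.9 and 15.9 CPM in ZT0A, ZT0B and ZT0C, 31.7 and 27.4 in ZT6A and ZT6B, 23.4, 34.9 and 30.1 in ZT12A, ZT12B and ZT12C, and 14.1 and 13.5 in ZT18A and ZT18B. Its ZT18 values were below the other 8, by log2 -1.02 ± 0.29 (SE) from ZT6 (adjusted p = 0.0644). Psmb9, the counterpart of Psmb6, stood at 11.0, 8.03 and 8.61 CPM in ZT0A, ZT0B and ZT0C, 20.7 and 12.4 in ZT6A and ZT6B, 7.56, 7.56 and 11.5 in ZT12A, ZT12B and ZT12C, and 3.77 and 8.62 in ZT18A and ZT18B. Psmb9 at ZT18B overlapped the ZT0 and ZT12 libraries, and its difference from ZT6 was -1.33 ± 0.39 (adjusted p = 0.0765). Psme1, the alpha subunit of PA28, stood at 84.5, 74.2 and 79.9 CPM in ZT0A, ZT0B and ZT0C, 95.9 and 93.5 in ZT6A and ZT6B, 49.5, 82.9 and 73.3 in ZT12A, ZT12B and ZT12C, and 50.6 and 52.8 in ZT18A and ZT18B. Both ZT6 libraries were above all others, and ZT12A was as low as ZT18, so that the difference from ZT6 to ZT18 was -0.80 ± 0.25 (adjusted p = 0.0946). Their fitted rhythms peaked at ZT 7.53 for Psmb10, 5.45 for Psmb9 and 4.43 for Psme1, with adjusted p of 0.101, 0.106 and 0.111. Fitted log2 amplitudes were 0.58 for Psmb3, 0.38 for Psmb5, 0.36 for Psmb6, 0.19 for Psmb7, 0.27 for Psme2, 0.11 for Psme3 and 0.23 for Psme4, none of them called, and the median of all members was 0.23 against 0.25 for all genes.

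The calls on Psmb8 rested on few libraries. Its adjusted p for ZT18 against ZT6 was 0.196 without ZT6A, 0.0703 without ZT18A and 0.19 without ZT18B. For the rhythm it was 0.178 without ZT6A, 0.0515 without ZT12B, 0.12 without ZT18A, 0.171 without ZT18B and 0.4659 without both ZT18 libraries. Leukocyte markers, like Psmb8, were highest in ZT6A, at 47.1 CPM. They summed to 8.11 in ZT6B, 7.86 in ZT18A and 4.85 in ZT18B. At ZT0 they summed to 8.44 to 17.1 and at ZT12 to 2.06 to 20.6, with the lowest of all in ZT12A. ZT6A alone thus stood apart. With every cell that held a leukocyte marker UMI left out, Psmb8 was 52.7 CPM in ZT6A and the ZT18 difference was -1.40 (adjusted p = 0.0161).

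**Figure D2:**
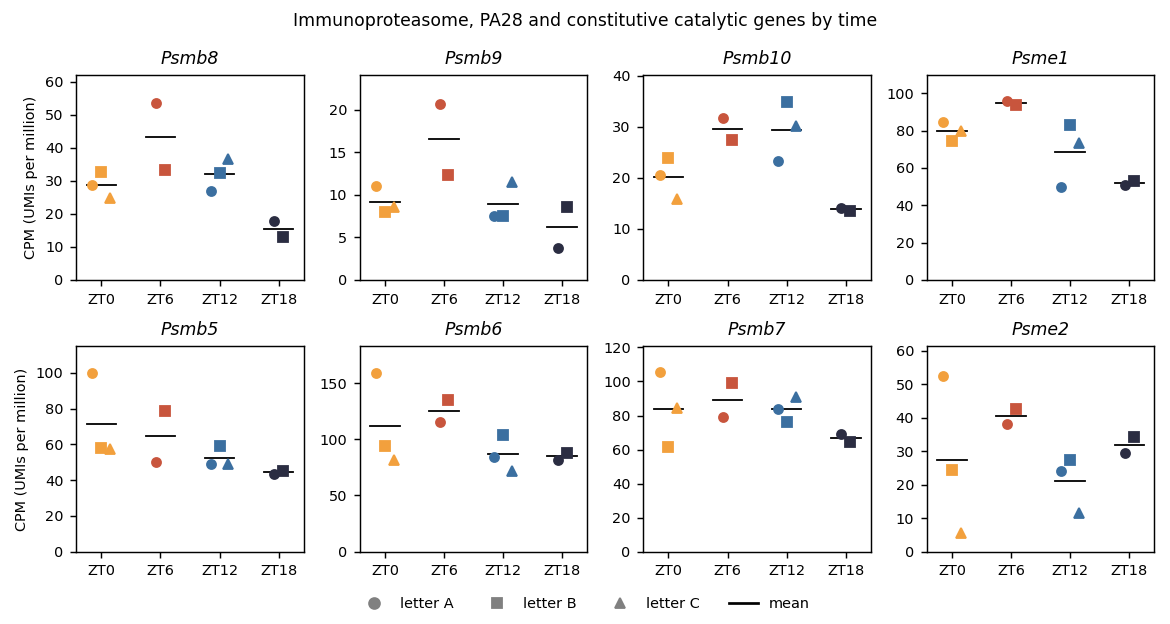
CPM of the immunoproteasome genes, the PA28 genes and the constitutive catalytic genes (y axes) in each library by time, with the mean of each time as a line and the library letter as the marker. For Psmb5, Psmb8 and Psmb10 both ZT18 libraries are below the other 8, and Psmb5, Psmb6 and Psmb7 are highest in ZT0A.

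The constitutive partners varied between libraries of a time as much as between times. Psmb5 stood at 99.8, 58.0 and 57.2 CPM in ZT0A, ZT0B and ZT0C, 50.2 and 78.8 in ZT6A and ZT6B, 48.8, 59.2 and 49.2 in ZT12A, ZT12B and ZT12C, and 43.4 and 45.3 in ZT18A and ZT18B. ZT0A was the highest, and the ZT18 values lay below the rest. Psmb6 differed by log2 -0.49 ± 0.35 and Psmb7 by -0.35 ± 0.28 from ZT6 to ZT18, and Psmb5 by -0.47 ± 0.34 (adjusted p = 0.47, 0.529 and 0.493). As a share of the UMIs of each pair, which takes the same place in the ring, Psmb8 made up 33.4 ± 8.95% of Psmb8 plus Psmb5, Psmb9 8.97 ± 3.28% of Psmb9 plus Psmb6 and Psmb10 22.3 ± 5.69% of Psmb10 plus Psmb7 (SD, n = 10). The share of Psmb8 ran from 22.2% in ZT18B (48 of 216 UMIs, exact 95% interval 16.9% to 28.4%) and 22.3% in ZT0A to 51.6% in ZT6A (263 of 510, 47.1% to 56.0%). By time its mean was 29.4 ± 6.86% (ZT0, SD, n = 3), 40.6 ± 15.5% (ZT6, n = 2), 37.8 ± 4.25% (ZT12, n = 3) and 25.7 ± 4.96% (ZT18, n = 2), and the times overlapped. These intervals cover counting error only.

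Between ZT0 and ZT12 no member passed the test, against 3.44% of all genes (1.74% higher and 1.7% lower at ZT12). An unadjusted p under 0.05 was reached by 7 members (16.7%), against 15.5% of all genes, and DESeq2 called 0. The signs were uneven: 33 of the 42 had a lower fitted level at ZT12, with a median log2 difference of -0.24 against -0.00 over all genes. Scaling by library size alone put the median of all genes at 0.13 and that of the members at -0.10. All 14 tested 20S genes outside the immunoproteasome were below 0, with a median of -0.47, against 13 of 17 for the 19S particle and a median of -0.16. Without ZT0A these medians were -0.18 (12 of 14 below 0) and -0.16 (15 of 17), so the gap between the 2 particles rested on that library. The 19S median was -0.07 without ZT12A and -0.27 without ZT12C. Cholangiocyte markers were lower at ZT12 as well, at 3.44 to 6.53 CPM against 17.4 to 32.5 at ZT0, with the highest in ZT0A, and their part in these differences was not tested. Among members with a mean of at least 20 CPM, the largest differences were those of the beta subunit genes Psmb3 (-0.81 ± 0.35) and Psmb2 (-0.71 ± 0.32) and of the alpha gene Psma2 (-0.64 ± 0.28), with adjusted p of 0.276, 0.3 and 0.29. The constitutive catalytic genes Psmb5, Psmb6 and Psmb7 differed by -0.60 ± 0.28, -0.51 ± 0.28 and -0.16 ± 0.22, but by -0.21, -0.09 and 0.11 without ZT0A. Their counterparts Psmb8, Psmb9 and Psmb10 differed by 0.01 ± 0.22, -0.23 ± 0.32 and 0.43 ± 0.22. Without ZT0A Psmb9 was at -0.02, and Psmb10 was at 0.21 without ZT12B and 0.25 without ZT0C. Psme1 and Psme2 differed by -0.34 ± 0.20 and -0.52 ± 0.58. Psme1 was at -0.18 without ZT12A and -0.57 without ZT12B, and Psme2 ranged from -1.02 without ZT0C to 0.44 without ZT0A.

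Psmb3, which forms part of the beta ring without a catalytic site, stood at 127, 50.8 and 60.9 CPM at ZT0 and 59.8, 53.5 and 38.7 at ZT12, so ZT0A alone was far above the rest. The members' median was -0.14 without ZT0A and -0.13 in cells with at least 3000 UMIs. All ZT12 libraries lay below all ZT0 libraries in 1 member, Psmd10, a chaperone of the 19S base (-0.62 ± 0.24, adjusted p = 0.227), against 4.47% of all genes. They lay above in 2, Psme3 and Psme4, against 13.6%.

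From ZT6 to ZT18 the members' median was -0.28, against -0.01 over all genes, with 30 of 42 below 0. It was -0.13 without ZT6B, -0.38 without ZT6A and -0.18 in cells with at least 3000 UMIs. In 8 members both ZT18 libraries lay below the other 8, against 7.44% of all genes: Psma6, Psmb5, Psmb8, Psmb10, Psmc3, Psmc4, Psmd8 and Psmd13. The ATPase genes Psmc3 and Psmc4 differed by -0.66 ± 0.25 and -0.64 ± 0.24, with adjusted p of 0.164 and 0.151, and Psmb3 by -0.81 ± 0.43 (adjusted p = 0.328). In 25 members both ZT18 libraries were below both ZT6 libraries, against 36.9% of all genes, and in 4 they were above, against 25.1%. Median mitochondrial share was 14.1% and 14.4% at ZT6 and 19.2% and 21.6% at ZT18. Its part in these differences was not tested beyond leaving those genes out, which gave Psmb8 -1.42 and an adjusted p of 0.0145.

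Position in the lobule gave the most calls. Cells of each library were ordered by 8 periportal and 8 pericentral landmark genes, split into 3 equal parts, and the outer parts, the pericentral and the periportal zone, were compared with the library as a block. Of the 42 members, 14 were higher in the pericentral zone and 0 in the periportal zone, against 12.6% and 12.1% of the 8909 genes tested (24.7% either way). The median difference, periportal minus pericentral, was -0.16, against -0.00 over all genes, and 35 of 42 members were below 0. DESeq2 called 10 members, all pericentral, and 0 of the members above 0 had an unadjusted p under 0.05. The summed level was 2750 ± 333 CPM pericentral and 2267 ± 270 periportal (SD, n = 10), higher pericentral in 10 of 10 libraries. Such sums are scaled by library size alone. That scaling put the median difference of all genes at -0.10 and that of the members at -0.25. In 9 members (Psma4, Psmb7, Psmc3, Psmd1, Psmd3, Psmd7, Psmd11, Psmd14 and Psme1) every library was higher pericentrally, against 8.33% of all genes, and in 0 every library was higher periportally, against 3.76%. Other markers moved with the zone too. Erythroid markers summed to 101 CPM pericentral and 75.0 periportal, higher pericentral in 10 of 10 libraries. Endothelial markers summed to 13.7 and 8.78 CPM, higher pericentral in 9 of 10, with Clec4g and Ptprb of 8 listed at 0. Cholangiocyte markers summed to 4.55 and 18.2 CPM, higher pericentral in 1 of 10, and hepatocyte markers to 52129 and 84491, in 0 of 10. Their part in the zone differences was not tested.

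The 19S cap genes Psmd14 and Psmd1 and the assembly chaperone Psmd5, which is not part of the cap, held the largest of these differences. Psmd14, the lid's deubiquitinase, was 54.9 ± 13.3 CPM pericentral and 31.5 ± 5.63 periportal (SD, n = 10), lower periportally by 0.67 ± 0.09 on the log2 scale (SE, adjusted p = 3.75e-07). It was higher pericentrally in all 10 libraries, with differences in log2(CPM + 1) from -1.23 in ZT0C to -0.34 in ZT12B. Psmd1, a scaffold of the base, was 60.6 ± 13.3 CPM against 39.3 ± 8.71 (log2 -0.52 ± 0.09, adjusted p = 2.01e-05), again in 10 of 10 libraries. Psmd5, a chaperone of base assembly, was 33.5 ± 11.6 CPM against 22.1 ± 5.15 (log2 -0.56 ± 0.11, adjusted p = 0.00025), in 9 of 10 libraries, ZT12A being the exception. The base subunits that receive ubiquitin, Psmd4 and Psmd2, differed by -0.36 ± 0.08 and -0.37 ± 0.09 and the ATPase Psmc3 by -0.32 ± 0.07. The lid genes Psmd11 and Psmd7 differed by -0.24 ± 0.07 and -0.23 ± 0.08. In all, 7 of 17 genes of the 19S particle were called, among them all 3 of the base without ATPase activity, 1 of 6 ATPases and 3 of 8 lid genes. Sem1, a small lid subunit without the prefix and listed as Shfm1, was also lower periportally (-0.24 ± 0.06, adjusted p = 0.00382).

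In the 20S core, 5 of 14 genes outside the immunoproteasome were called. These were the alpha genes Psma1 (-0.37 ± 0.08), Psma5 (-0.32 ± 0.09) and Psma7 (-0.28 ± 0.09) and the beta genes Psmb7 (-0.27 ± 0.08) and Psmb1 (-0.21 ± 0.08). Psmb7, which carries the trypsin-like site, was 92.3 ± 20.2 CPM pericentral and 70.6 ± 13.8 periportal. The other constitutive catalytic genes, Psmb5 (-0.03 ± 0.09) and Psmb6 (0.04 ± 0.08), were not called. Psme1 was lower periportally by 0.29 ± 0.07, with an adjusted p of 0.00301, whereas its partner Psme2 was at 0.00 ± 0.12 and the other activators Psme3 and Psme4 at -0.12 ± 0.11 and -0.04 ± 0.08. Calls remained for 10 of the 14 genes whichever library was left out. Psmb1 was lost without any of ZT0A, ZT0B, ZT6A, ZT6B, ZT12B, ZT12C, ZT18A or ZT18B (adjusted p up to 0.129), Psma7 without ZT0B or ZT18A (up to 0.056), Psmd7 without ZT0A, ZT0B or ZT12A (up to 0.0628) and Psma5 without ZT0A (0.0557).

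Median mitochondrial share was higher in the periportal zone of all 10 libraries, at 13.3% to 26.2% against 11.1% to 23.6%. With mitochondrially encoded genes left out, 14 members were called and all 14 were the same genes. Scaled by library size alone, the median of all genes moved to -0.10 and 22 members were called, again none of them periportal. In cells with at least 3000 UMIs, 5 remained, while the members' median was -0.16, as in all cells.

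**Figure D3:**
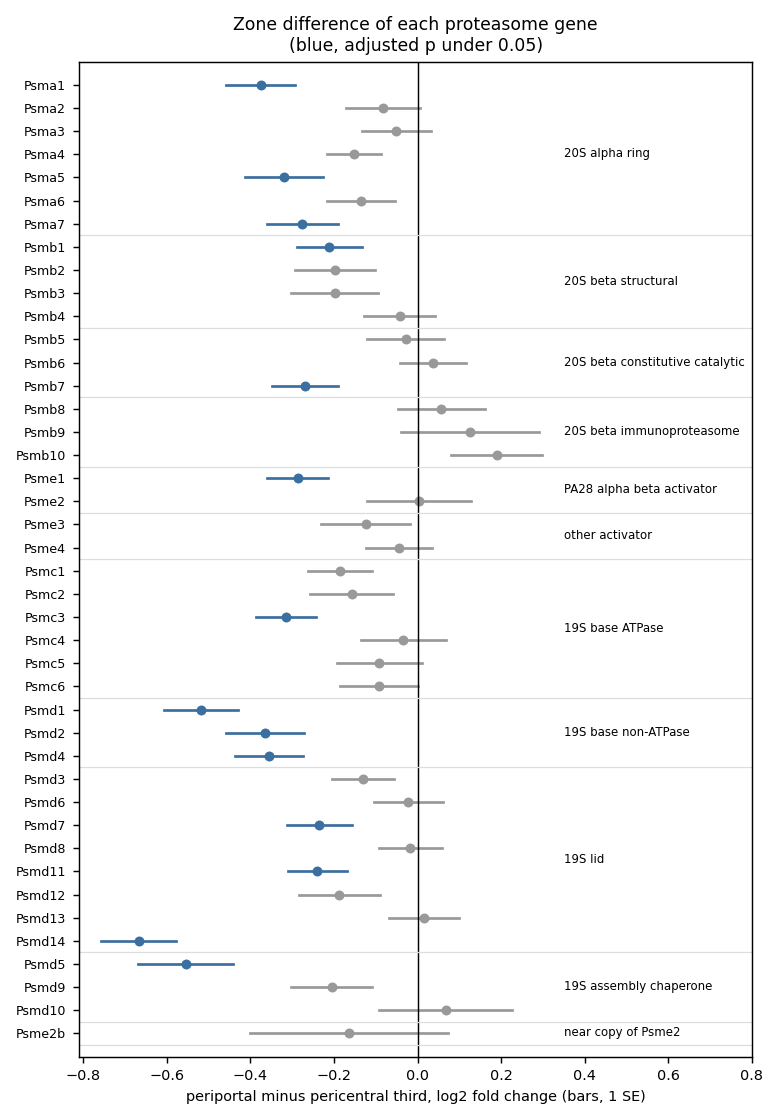
Log2 fold change of each tested member, periportal minus pericentral zone (x axis), with bars of 1 SE and the genes grouped by role. All 14 called genes, in blue, lie left of 0, from -0.67 for Psmd14 to -0.21 for Psmb1, while Psmb8, Psmb9 and Psmb10 lie at 0.06, 0.13 and 0.19.

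The immunoproteasome genes were not called by zone. Psmb8 had a fitted log2 difference of 0.06 ± 0.10 and was higher periportally in 4 of 10 libraries. Psmb9 differed by 0.13 ± 0.16 and Psmb10 by 0.19 ± 0.11, with adjusted p of 0.652 and 0.231 (0.757 for Psmb8). Scaled by library size alone, Psmb8 was at -0.05, Psmb9 at 0.03 and Psmb10 at 0.09. The share of Psmb10 in its pair was 18.9 ± 4.72% pericentral and 24.3 ± 7.08% periportal, higher periportally in 9 of 10 libraries. Psmb7, the other gene of that pair, was the one that was called. For Psmb8 the share was 32.2% and 33.0%, higher periportally in 5 of 10 libraries, and for Psmb9 7.90% and 8.40%, in 7 of 10.

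Split into 8 layers of equal cell number, the members' sum went from 2878 ± 357 CPM in layer 1, nearest the central vein, through 2515 ± 362 in layer 4 to 2235 ± 252 in layer 8 (SD, n = 10). Layer values too were scaled by library size alone. Psmd14 went from 61.7 ± 19.3 CPM in layer 1 to 34.6 ± 6.78 in layer 4 and 32.2 ± 9.90 in layer 8, so most of its decline lay in the pericentral layers. Psmd1 went from 69.9 ± 16.8 CPM in layer 1 to 58.7 ± 11.7 in layer 2 and 39.5 ± 11.5 in layer 7. The immunoproteasome sum was 61.7 ± 25.0 CPM in layer 2, 74.0 ± 32.9 in layer 5 and 61.0 ± 19.9 in layer 8, differences within the spread of the libraries.

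**Figure D4:**
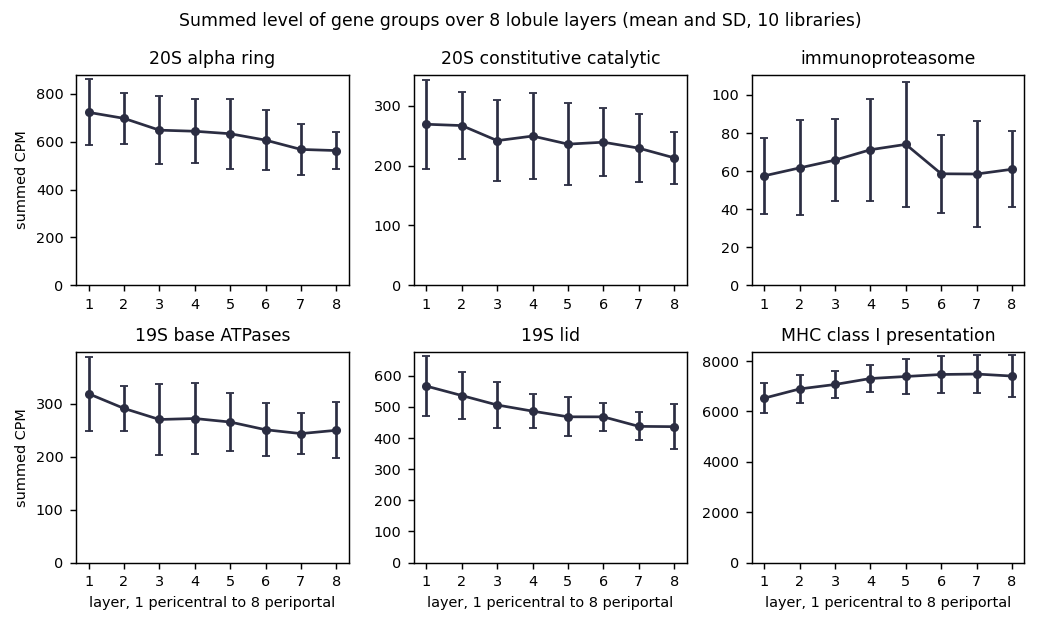
Summed CPM (y axes from 0) of 6 gene groups over 8 lobule layers from pericentral (1) to periportal (8), as mean and SD of 10 libraries. The 20S and 19S groups are lower in layer 8 than in layer 1, the immunoproteasome stays between 57.5 and 74.0 CPM, and the MHC class I genes run from 6527 CPM in layer 1 to 7404 in layer 8.

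No change of the zone difference over the day passed the test: 0 of 42 members passed a zone-by-rhythm term, against 0.0449% of all genes, with 4 (9.52%) at an unadjusted p under 0.05, against 6.12% of all genes, and 0 by DESeq2. The largest terms among the better measured genes were those of Psme3, an activator found mainly in the nucleus, and of Psma2 and Psmb2, with log2 amplitudes of 0.49, 0.43 and 0.42 and adjusted p of 0.719, 0.66 and 0.518. Psmd14 was lower periportally at each time, with mean differences in log2(CPM + 1) of -0.84 ± 0.36 at ZT0 (SD, n = 3), -0.80 ± 0.15 at ZT6 (n = 2), -0.64 ± 0.27 at ZT12 (n = 3) and -0.78 ± 0.26 at ZT18 (n = 2).

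Some members differed more between library letters than between times. The letter also sets the index-plate column at ZT0 and ZT12 (3 for A, 7 for B and 5 for C), so letter and column cannot be told apart. Psme2, the beta subunit of PA28, stood at 52.4, 24.2 and 5.4 CPM in ZT0A, ZT0B and ZT0C, 38.2 and 42.5 at ZT6, 24.1, 27.3 and 11.5 in ZT12A, ZT12B and ZT12C, and 29.6 and 34.2 at ZT18. Both C libraries were below the other 8, by log2 -2.61 from A in a test of the letter over the 6 libraries of ZT0 and ZT12 (adjusted p = 0.0452). It was 1 of 42 members called, against 1.79% of all genes, and the call was lost without ZT0C (adjusted p = 0.48). Psmd2, a ubiquitin-docking subunit of the base, stood the other way, at 39.3 and 54.7 CPM in ZT0A and ZT0B and 109 in ZT0C, 57.7 and 58.9 in ZT12A and ZT12B and 107 in ZT12C, and 42.8 to 51.8 at ZT6 and ZT18. The ATPase gene Psmc1 stood at 95.9 CPM in ZT0C and 108 in ZT12C against 44.3 to 61.8 elsewhere. Both C libraries were thus far above the other 8 for both genes, with adjusted p of 0.0706 and 0.0917. Psmb3 differed by -1.08 from A to C (adjusted p = 0.146). This test was added after the values were seen.

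**Figure D5:**
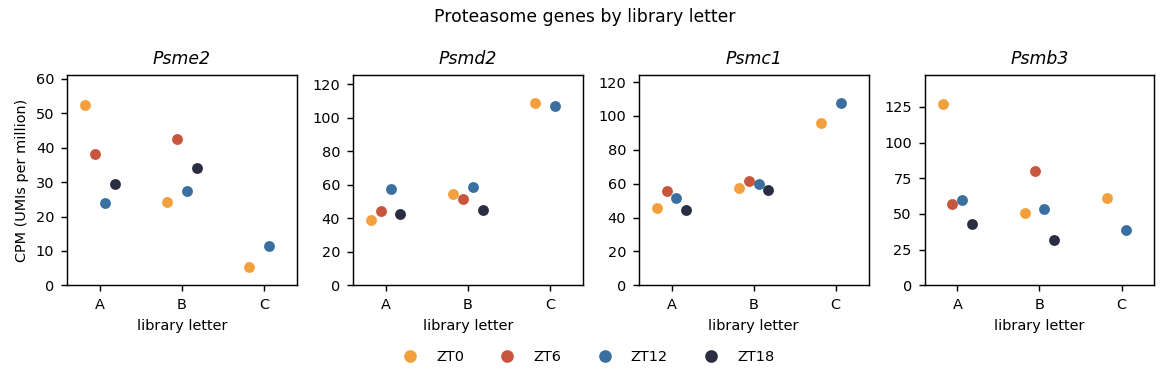
CPM (y axes) of Psme2, Psmd2, Psmc1 and Psmb3 by library letter (x axes), coloured by time, with each point being 1 library. In both C libraries Psme2 is at most 11.5 CPM and Psmd2 and Psmc1 are at least 95.9.

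Counts of Psme2 are uncertain, because Psme2b, on chromosome 11, is nearly the same sequence as Psme2, on chromosome 14. Their longest GENCODE M21 transcripts match over 794 bases with 5 mismatches (99.4% identity), all coding and 221 to 452 bases from the 3′ end of Psme2. The mismatch nearest that end is in capitals within 30 bases of each transcript, from base 726 to 755 of Psme2 and 600 to 629 of Psme2b.
Psme2: caaggcttccaaggaCacccatgtaatgga
Psme2b: caaggcttccaaggaTacccatgtaatgga
Psme2b was listed at 9.43, 3.72 and 3.88 CPM in ZT0A, ZT0B and ZT0C, 4.88 and 5.41 in ZT6A and ZT6B, 2.75, 4.62 and 3.01 in ZT12A, ZT12B and ZT12C, and 11.6 and 12.1 in ZT18A and ZT18B. It was the one member with both ZT18 libraries above the other 8, against 6.14% of all genes, by log2 1.30 ± 0.48 over ZT6 (adjusted p = 0.153). The remaining activators, Psme3 and Psme4, which caps the core as PA200, differed by -0.20 ± 0.23 and 0.39 ± 0.22 from ZT6 to ZT18 and were not called in any comparison.

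Genes that work with the proteasome were compared by zone as well. Of all genes, 12.6% were called higher pericentrally and 12.1% periportally (24.7% either way). Of 17 tested assembly and associated factors, 6 were higher pericentrally and 1 periportally: the deubiquitinase Usp14 (-0.44 ± 0.09), the assembly chaperone Psmg3 (-0.44 ± 0.14), the inhibitor Psmf1 (-0.42 ± 0.13), the shuttle proteins Rad23b (-0.26 ± 0.07) and Ubqln1 (-0.21 ± 0.07), and Shfm1, against Psmg2 (0.47 ± 0.17). Of 15 ubiquitin and p97 genes, 3 were higher pericentrally and 1 periportally, near the share of all genes. The p97 segregase Vcp (-0.44 ± 0.07) and its cofactor Nploc4 (-0.34 ± 0.09) were among those higher pericentrally. The activating enzyme Uba1 (0.23 ± 0.08) was higher periportally. Among 7 genes of proteasome gene control, Nfe2l1, the factor that restores proteasome transcription, differed by -0.32 ± 0.08, Nfe2l2 by -0.26 ± 0.09 and its adaptor Keap1 by -0.27 ± 0.09, all higher pericentrally, and 4 were not called. With 1 library left out, calls were lost for Psmg2 (ZT0B, ZT0C, ZT6A, ZT6B, ZT12A, ZT12C or ZT18A, adjusted p up to 0.179), Uba1 (ZT0A, ZT0B, ZT0C, ZT12B, ZT12C or ZT18B, up to 0.0911), Keap1 (ZT0C, ZT12B or ZT18A, up to 0.116), Psmg3 (ZT0A or ZT0C, up to 0.0967), Ubqln1 (ZT6A, ZT12B or ZT12C, up to 0.0962), Psmf1 (ZT12B, 0.0747) and Nfe2l2 (ZT0A, ZT12B or ZT18B, up to 0.066). Scaled by library size alone, no gene of these lists was called periportal.

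MHC class I presentation, which uses the peptides that proteasomes make, ran the other way. Against 12.1% and 12.6% of all genes, 8 of its 14 genes were higher periportally and 0 pericentrally. They include the heavy chains H2-D1 (0.42 ± 0.06), H2-T23 (0.59 ± 0.12) and H2-Q10 (0.26 ± 0.06), B2m (0.26 ± 0.06), the chaperone Pdia3 (0.37 ± 0.07) and the peptide transporter Tap1 (0.49 ± 0.15). Scaled by library size alone, 5 were higher periportally and 1 pericentrally. Canx (0.22 ± 0.06) and H2-K1 (0.16 ± 0.06) were called too. Of 20 interferon response genes, 6 were called by zone, near the 24.7% of all genes. Irf7 (0.58 ± 0.10) and Stat2 (0.50 ± 0.12) were higher periportally, and Ifit1 (-1.10 ± 0.20), Rsad2 (-0.91 ± 0.17), Ifit3 (-1.23 ± 0.23) and Usp18 (-0.48 ± 0.16) pericentrally. Calls were lost for H2-K1 without ZT0A, ZT0B, ZT0C, ZT6B, ZT12C, ZT18A or ZT18B (adjusted p up to 0.127), for Tap1 without ZT6A or ZT18B (up to 0.116) and for Usp18 without ZT0C or ZT6B (up to 0.102).

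Across the day few of these genes passed. From ZT6 to ZT18 the ubiquitin-like modifier Isg15 fell by 3.17 ± 0.41 on the log2 scale (adjusted p = 0.000691), from 13.0 and 18.2 CPM to 1.26 and 1.89. These ZT18 values rest on few UMIs, in libraries of 3181006 and 3711102 UMIs. They are below the 3 CPM that the mean of a tested gene had to reach. The p97 cofactor Ubxn1 fell by 1.17 ± 0.23 (adjusted p = 0.0149) and the tapasin gene Tapbp by 0.997 ± 0.25 (adjusted p = 0.0426). Of the 20 interferon response genes 17 were below 0, with a median of -1.05. An unadjusted p under 0.05 was reached by 14 (70%), against 19.6% of all genes, and Isg15 was the one called. The list also varied between library letters at ZT0 and ZT12, where 9 of the 20 (45%) reached such a p, against 20.4% of all genes. That list's sum was 1328 and 868 CPM at ZT6 and 696 and 685 at ZT18, with 746 to 1077 in the other libraries. From ZT0 to ZT12 Pdia3 fell by 1.02 ± 0.21 (adjusted p = 0.014). Rhythms were called for Ubxn1, Pdia3 and Rsad2, with adjusted p of 0.0161, 0.038 and 0.0444. The Isg15 call held whichever library was left out. Calls from ZT6 to ZT18 were lost for Ubxn1 without any ZT6 or ZT18 library (adjusted p up to 0.185) and for Tapbp without any of these or ZT12C (up to 0.303), and that of Pdia3 from ZT0 to ZT12 without ZT12A (0.0516). The rhythm of Ubxn1 was lost without ZT6A, ZT6B or ZT18A (up to 0.0679), that of Pdia3 without any library but ZT12B and ZT18A (up to 0.0891) and that of Rsad2 without any but ZT0A and ZT12C (up to 0.117).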

How the data were processed

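UMI counts per gene and cell were deposited by the authors for 10 libraries. The submitters' processing notes name Cell Ranger, with no version, and the builds mm10 and hg19, with no role. All 18378 deposited cells were used, and the files' lower-case symbols were spelled after GENCODE M21 (14321 of 14812 matched). Cells carry running numbers and not barcodes, so shared barcodes could not be counted, and doublets were not called.

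Counts were summed per library, or per library and zone (the outer parts of a cell order split into 3), and tested with edgeR 4.0.16 (quasi-likelihood, TMM, mean of at least 3 CPM) in R 4.3.3, with p adjusted by Benjamini-Hochberg over all genes tested (8908 by time, 8925 by zone, counted over 8909 without landmarks). The rhythm test used a cosine and a sine of 24 h. DESeq2 1.42.0 was an alternative. A difference was called at an adjusted p under 0.05. Pair shares, class sums and layers are descriptions. The members, lists and tests were chosen with earlier results of these data known. Genes named by rule are the catalytic and activator members, the called members (up to 10) and the called genes of a list (up to 6), the 3 highest and 3 lowest members, and in each comparison the 3 members of at least 20 CPM with the largest change. Other called genes by zone, members whose groups did not overlap and Psmc1 were added after their values were seen. The result of 1 called gene is not reported here.

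Deviations of same-letter ZT0 and ZT12 libraries correlated at 0.239 (A), 0.42 (B) and 0.473 (C), so letters may pair those times. The reported tests by time had no term for the letter and so were not paired. With the letter as a block, an alternative, 504 genes were called between ZT12 and ZT0, against 306 without it. Libraries of a time differed by 5.30 to 63.6 times the sampling noise (chi-square per degree of freedom). On simulated counts the tests recovered 24% of rhythms with a log2 amplitude of 0.5 and 91% of those with 1. For zone differences of 0.5 and 1 they recovered 62% and 95%, and for zone-by-rhythm amplitudes 36% and 81%. For ZT12 against ZT0 the shares were 0% and 17%, and for ZT18 against ZT6 0% and 0%. An amplitude runs from the mean to the peak, so it is not on the scale of a difference between times. All simulated rhythms, those by zone too, peaked at ZT0 or ZT12, the times with 3 libraries each. Recovery of rhythms that peak near ZT6 or ZT18, as fitted for Psmb8, was not simulated.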

Additional observations from a re-analysis of the deposited data

Results flagged for a closer look

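The zone difference of Psmd7, a lid subunit, was -0.99 in log2(CPM + 1), periportal minus pericentral, in ZT12A, the library with the fewest UMIs. In the other 9 libraries it was between -0.55 and -0.08. This gap, 0.488 of the whole range, was above the 95% limit of Dixon's criterion for 10 values. Of 42 members checked in this way it was the one flagged, and chance flags about 1 in 20. Without ZT12A the adjusted p of Psmd7 by zone was 0.0537.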

How the results depend on the processing

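Counts of called members kept within 1.5 times of the reported value under the other settings, with these exceptions. The rhythm of Psmb8 (1 member) became 0 in cells with at least 3000 UMIs and without both ZT18 libraries, and 0 to 1 with a library left out, where Psmb9 took the place of Psmb8 without ZT18B. For ZT18 against ZT6 (1 member) there were 2 by library size alone, 3 without a filter, 0 in cells with at least 3000 UMIs, 2 with the replicate block (Psmb10 added, adjusted p = 0.0261) and 0 to 2 with a library left out. Without ZT0A, 1 member was called higher at ZT18 than at ZT6 and 1 lower. For the zones (14 members) there were 22 by library size alone, 5 in deep cells and 11 to 15 with a library left out. The letter test, added after the data were seen (1 member), gave 3 by library size alone, 5 without a filter, 0 at a mean of at least 20 CPM, 6 in deep cells, 0 without mitochondrially encoded genes and 0 to 12 with a library left out. Causes were not tested, except that deep cells were 44 to 953 per library. ZT12 against ZT0 and zone by rhythm stayed at 0 throughout, with the replicate block too for the former. Pair shares and the summed level moved by less than 1 SD, except that the sum was 3034 CPM without mitochondrially encoded genes; with a library left out they ranged from 31.4% to 34.7% (Psmb8), 8.27% to 9.47% (Psmb9) and 2452 to 2538 CPM. No named gene that was called changed direction.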
